A study of Mus musculus with 22 samples.

Results

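The 44 genes described here encode the machinery of mitosis and chromosome segregation, from the CDK1 kinase and its cyclins to the condensin complex. They were taken by name, as a list of genes with these roles, and fall into 9 groups by role. All 44 were found among the 23129 genes listed in each of the 3 deposited tables, and all 44 passed the filter on low values in every table. A dividing cell transcribes these genes mainly in the G2 and M phases, through FOXM1 and the MYB-MuvB complex, and the DREAM complex holds them down in resting cells. In B cell development, large Pro-B and large Pre-B cells divide, driven by IL-7 and by the pre-B cell receptor, whereas small Pre-B cells have largely left the cycle to rearrange the immunoglobulin light chain. These genes therefore report how much of a sorted population is dividing as well as how strongly each cell transcribes them.

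The libraries were made from poly-A RNA of bone marrow B cell precursors of adult tet-LIN28B mice and littermate controls. The LIN28B protein binds RNA and is normally made by progenitors of fetal and newborn mice. The tet-LIN28B mice carried a single allele of a Flag-tagged human Lin28b cDNA at the Col1a locus, which responds to doxycycline, together with the Rosa26 rtTA-m2 activator. The control mice were heterozygous for the Rosa26 activator alone, so all groups carried it. Mice of both genotypes ate chow with 200 mg/kg doxycycline, and were analysed after 10 days. Because the activator is expressed from Rosa26, induction was not limited to B cells, and male and female mice were used together. Cells were sorted as CD93+ IgM-, with cKIT separating Pro-B (positive) from Pre-B (negative) cells and size taken from forward scatter. Large Pro-B cells were represented by 5 tet-LIN28B and 4 control mice, large Pre-B cells by 4 tet-LIN28B and 3 control mice, and small Pre-B cells by 3 mice of each genotype. The 22 libraries came from 15 mice, of which 7 gave a library of each large stage.

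Large Pro-B libraries held 13.9 to 23.3 M reads, those of large Pre-B cells 19.9 to 30.4 M and those of small Pre-B cells 32.0 to 51.0 M. Lin28b had normalized counts of 57.0 to 232 in tet-LIN28B and 4.63 to 10.2 in control large Pro-B libraries, 41.9 to 175 in tet-LIN28B and 9.92 to 28.8 in control large Pre-B libraries, and 81.9 to 230.2 in tet-LIN28B small Pre-B libraries against 0 reads in every control, and it passed the test in small Pre-B cells alone (limma adjusted p = 7.72e-05, against 0.290 for large Pro-B cells and 0.452 at the large Pre-B stage). The transgene is a human cDNA, so these counts hold only what aligned to the mouse gene. All 10 B cell precursor markers examined were present in every group. The Pro-B markers Kit, Dntt and Flt3 summed to 1074 to 3253 RPM (reads per M reads) in large Pro-B libraries, 31.6 to 75.2 in large Pre-B libraries and 2.66 to 6.18 in small Pre-B libraries. The tet-LIN28B replicate 4 and control replicate 4 libraries of large Pro-B cells stood apart, each with a correlation of 0.900 with the rest of its group across all genes tested, against 0.936 to 0.965 for the others, and large Pro-B results are also given without both. The study used 2 models of sequencer, and which library ran on which is not stated in the sources used here.

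Many genes of this class carry a CHR element (cell cycle genes homology region, TTTGAA), bound by the MuvB core, close to the start of transcription, with CCAAT boxes, bound by NF-Y, upstream of it. Start-site windows of 300 bases (250 before to 50 after the annotated start, RefSeq, GRCm38.p6) were found for 37 of the 44 genes. Windows for Aurkb, Ccna2, Incenp, Kif20a, Smc4, Spc24 and Tpx2 were not used here. The 150 bases just upstream of the start are printed for 6 genes, written 5′ to 3′ in the direction of the gene in lower case. Matches farther upstream or after the start are not in view. Capitals mark the letters TTTGAA or CCAAT on either strand, so that TTCAAA and ATTGG are matches on the opposite strand. The first 3 genes, Ccnb2 (chr9:70421555-70421704, minus strand), Mki67 (chr7:135716380-135716529, minus strand) and Birc5 (chr11:117849087-117849236, plus strand), were higher in tet-LIN28B small Pre-B cells. The other 3, Cdk1 (chr10:69352913-69353062, minus strand), Top2a (chr11:99024190-99024339, minus strand) and Cdc20 (chr4:118437344-118437493, minus strand), did not pass the test in any stage.
Ccnb2: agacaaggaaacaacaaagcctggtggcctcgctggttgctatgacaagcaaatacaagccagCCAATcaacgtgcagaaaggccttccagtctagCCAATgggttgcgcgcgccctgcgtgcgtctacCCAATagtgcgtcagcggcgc
Mki67: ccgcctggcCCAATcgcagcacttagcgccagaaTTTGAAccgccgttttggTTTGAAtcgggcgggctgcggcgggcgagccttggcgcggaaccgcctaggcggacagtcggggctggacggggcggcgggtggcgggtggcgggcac
Birc5: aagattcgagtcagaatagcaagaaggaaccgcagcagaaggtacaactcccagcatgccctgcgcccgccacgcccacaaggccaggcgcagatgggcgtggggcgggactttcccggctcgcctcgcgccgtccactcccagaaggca
Cdk1: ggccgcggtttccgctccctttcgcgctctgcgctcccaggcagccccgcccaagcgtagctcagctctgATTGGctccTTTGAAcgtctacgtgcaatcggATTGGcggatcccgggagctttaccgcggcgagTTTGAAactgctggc
Top2a: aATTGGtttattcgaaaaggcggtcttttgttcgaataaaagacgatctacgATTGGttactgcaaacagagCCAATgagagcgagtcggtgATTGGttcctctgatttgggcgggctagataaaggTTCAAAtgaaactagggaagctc
Cdc20: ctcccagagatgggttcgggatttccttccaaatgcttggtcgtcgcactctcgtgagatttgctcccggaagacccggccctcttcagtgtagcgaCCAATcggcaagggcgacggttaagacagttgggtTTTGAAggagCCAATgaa
Top2a had 4 CCAAT letters and 1 CHR match in these 150 bases and Cdk1 had 2 of each, whereas Birc5 had neither. Ccnb2 had CHR matches at -167 and 4 bases from the start, both outside the printed stretch.

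Over the whole 300 bases, a CHR match was found in 27 of the 37 genes (73.0%), against 18.1% of 27025 genes with a window and 12.5% of 9293 such genes that were tested in small Pre-B cells. Within 100 bases before to 50 bases after the start, the share was 67.6% (25 genes), against 8.08% of all genes with a window and 4.68% of those tested. CCAAT letters were found in 29 of the 37 genes (78.4%), against 37.9% of all genes and 39.7% of those tested. E2F core letters (TTTCCCGC, TTTGGCGC or TTTCGCGC) were found in 3 genes (8.11%), against 1.91% and 3.75%. All motifs were read on both strands, and in 1 window matches of different motifs shared bases. Of the CHR matches, 25 of 34 lay within 50 bases of the start, and 43 of 70 CCAAT matches lay in the 100 bases before it. A CHR match and CCAAT letters stood together in 24 genes, and Mad2l1, Birc5, Nuf2, Nusap1 and Ncaph had neither. As a check of the annotated starts, the last 20 bases of each window were sought in GENCODE transcripts of the same gene. They were found for 39 of 41 windows (some genes had more than 1). The windows of Mad2l1 and Aurka failed this check, and that of Mad2l1 ended before the GENCODE gene began. Among the genes that were higher in tet-LIN28B small Pre-B cells, 5 of 9 with a window had a CHR match, and among the other members 22 of 28 had one. These matches are descriptions of letters and show no binding.

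**Figure D1:**
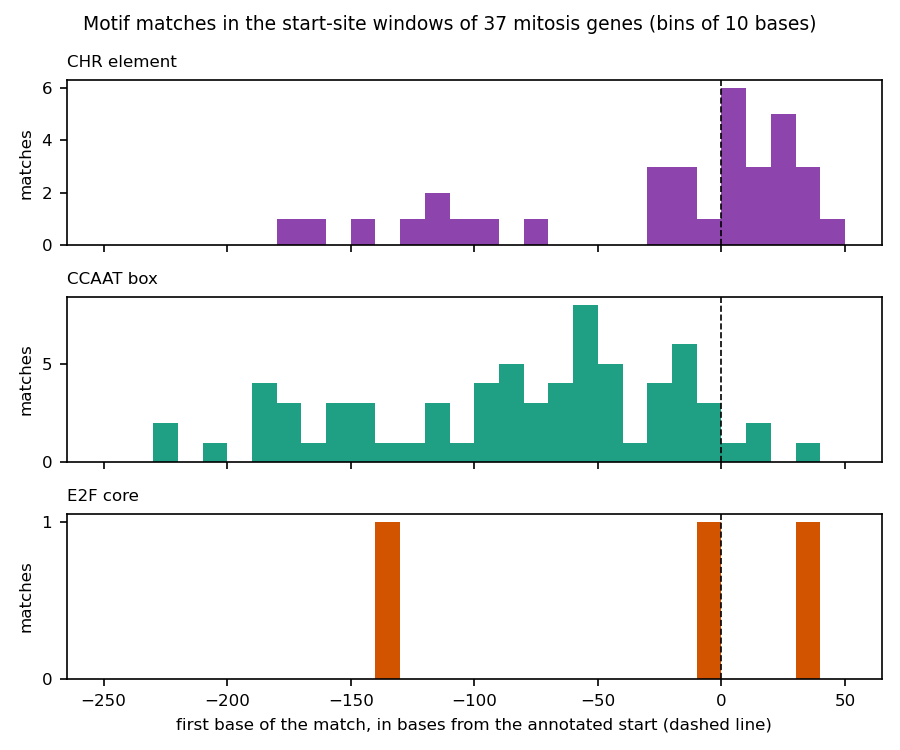
Position of motif matches in the start-site windows of 37 mitosis genes. The horizontal axis gives the first base of the match in bases from the annotated start (dashed line), and the vertical axis the number of matches in bins of 10 bases. The 34 CHR matches had a median position of 2 bases and the 70 CCAAT matches a median position of -69.5 bases.

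The 44 genes were abundant in both large stages and scarce in small Pre-B cells. Their summed level was 23714 to 26851 RPM in tet-LIN28B and 20183 to 29641 in control large Pre-B libraries. In large Pro-B cells the sum was 19735 to 23292 RPM in tet-LIN28B and 17236 to 24536 in control libraries. Small Pre-B libraries had sums of 1393, 1015 and 1277 RPM in tet-LIN28B and of 924, 1015 and 1034 in control mice. The tables were normalized separately by stage, so levels across stages are given as RPM over the genes shared by the tables, with no test. Small Pre-B cells also came from other mice than both large stages, so stage and set of mice cannot be told apart.

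**Figure D2:**
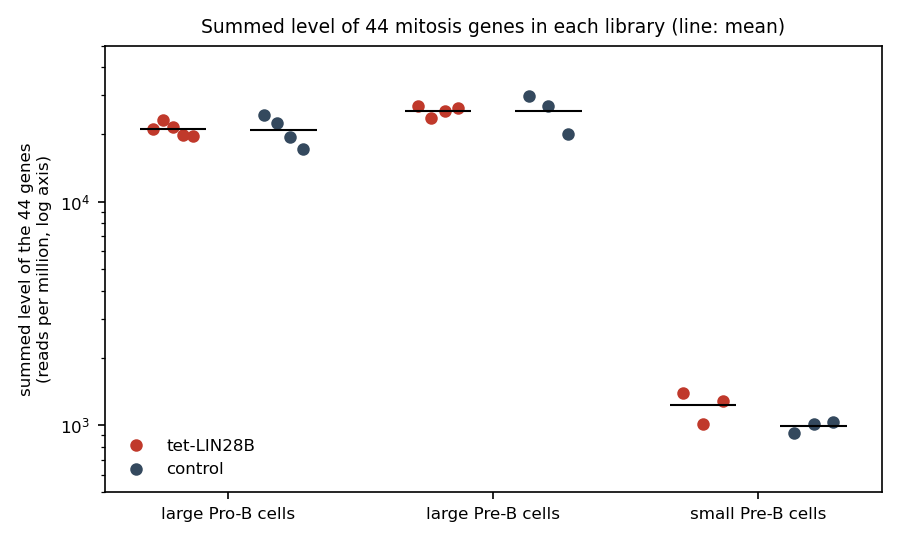
Summed level of the 44 mitosis genes in each library, in RPM on a log axis, by stage and genotype (points are libraries and lines are means). Means were 21122 and 20962 RPM in tet-LIN28B and control large Pro-B cells, 25588 and 25570 in tet-LIN28B and control large Pre-B cells, and 1228 and 991 in tet-LIN28B and control small Pre-B cells.

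Over the 44 genes, the level in large Pre-B cells was a median of 23.9 times that in small Pre-B cells in tet-LIN28B mice and of 31.2 times in control mice, whereas the control median over 12370 genes was 0.946. Cdk1, the kinase that drives entry into mitosis, had the highest ratio in control mice (121), and Nusap1, a protein that bundles spindle microtubules, had a ratio of 101. The lowest were those of Smc4, an ATPase of condensin (7.84), Cenpa, the histone H3 variant of centromeres (4.28), and Cks2, the small subunit that binds CDK1 (1.43). For 43 of the 44 genes every large Pre-B library was above every small Pre-B library, with Cks2 as the exception. From large Pro-B to large Pre-B cells, the ratio of levels had a median of 1.21 in tet-LIN28B mice (37 of 44 genes above 1) and of 1.20 in control mice (40 of 44 above 1).

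Levels of different genes were compared as RPKM, the RPM divided by the length in kilobases of the longest coding transcript. In control large Pre-B cells, the mean was highest for Cdc20, the activator of the anaphase-promoting complex (660.0 RPKM), Ccnb2, a B-type cyclin (626 RPKM), and Cdca8, the Borealin subunit of the chromosomal passenger complex (525 RPKM), and lowest for Aspm, a spindle pole protein (21.0 RPKM). In control small Pre-B cells the order was led by Cenpa (82.6 RPKM), Ccnb2 (45.3 RPKM) and Cdc20 (38.0 RPKM), and Cenpf, a large kinetochore protein, was lowest (0.818 RPKM). Ratios and orders across genes carry no test.

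In small Pre-B cells, 11 of the 44 genes were higher in tet-LIN28B mice and none was lower at a limma adjusted p under 0.05. Of all 14664 genes tested, 7.34% were higher and 7.03% were lower. The 11 genes were Ccna2, Ccnb1, Ccnb2, Birc5, Cdca8, Kif4, Cenpe, Ndc80, Tpx2, Ncaph and Mki67, and their fold changes lay between 1.34 and 1.71. The log2 fold change was positive for 41 of the 44 genes with a median of 0.38, against a median of -0.002 over all genes tested. The 3 tet-LIN28B libraries were all above the 3 control libraries for 18 of the 44 genes and below them for none, whereas 17.7% of all genes tested had the groups apart in the higher direction and 16.2% in the lower direction. In bulk RNA, a larger share of dividing cells and more RNA per cell cannot be told apart.

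**Figure D3:**
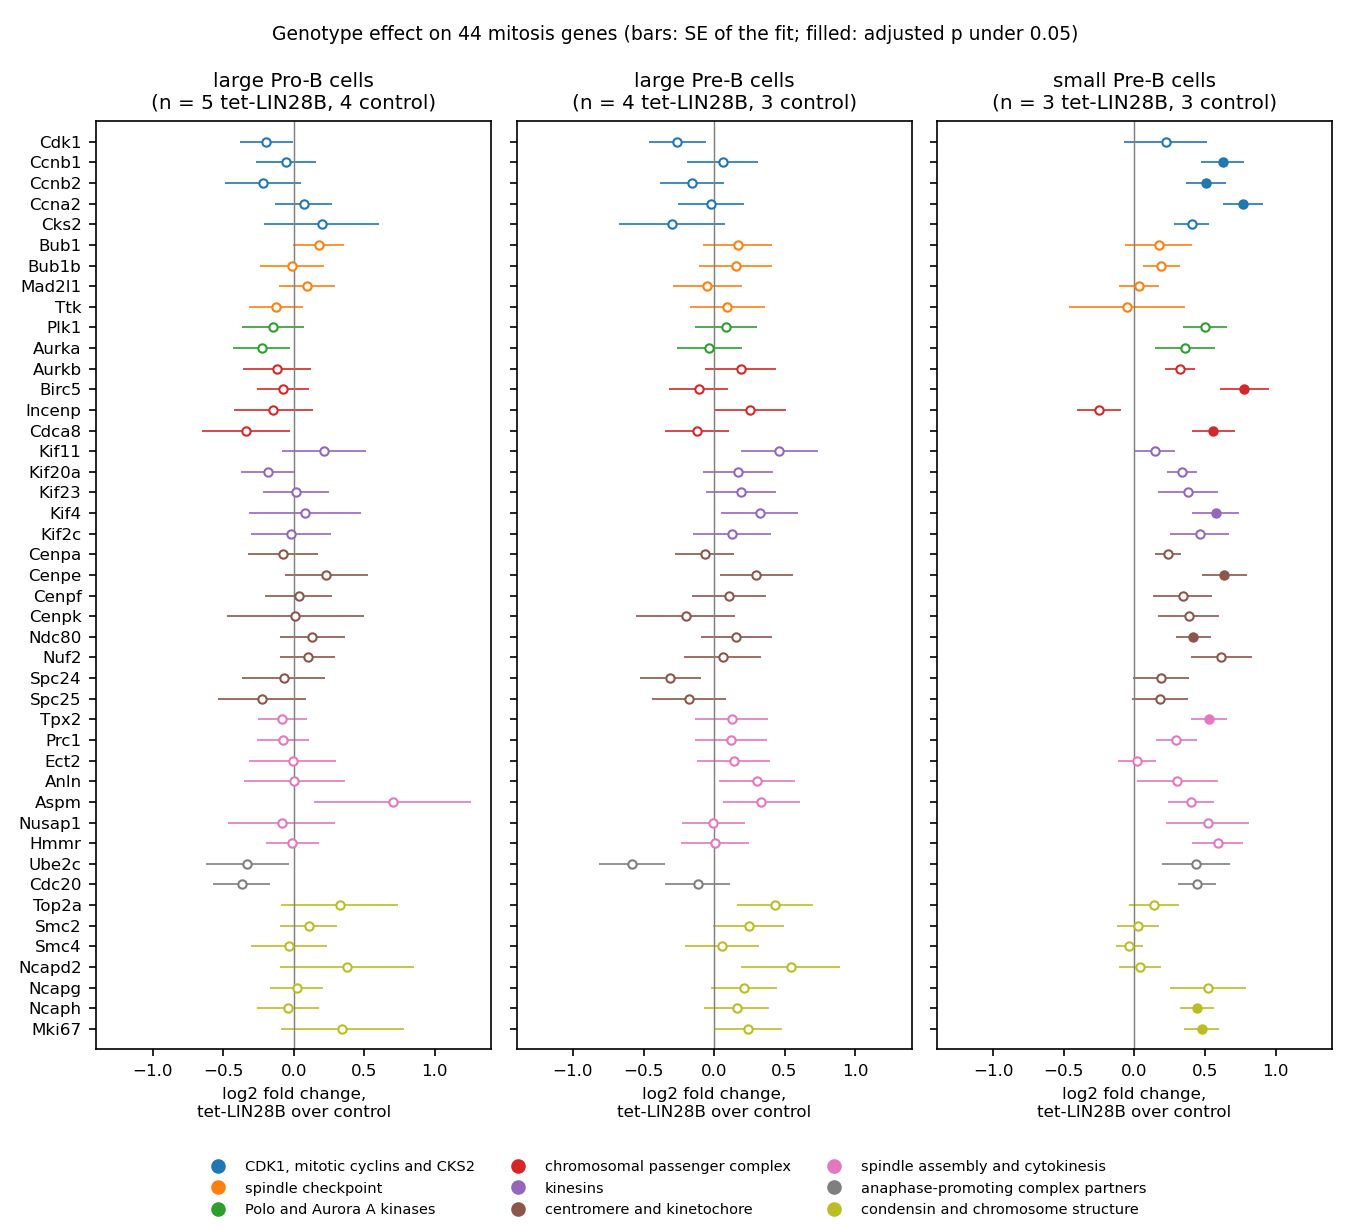
Log2 fold change of tet-LIN28B over control for each of the 44 mitosis genes at each stage, grouped by role. Points are limma estimates, bars are their SE and filled points have an adjusted p under 0.05. In small Pre-B cells 41 of 44 points lie above 0 and 11 are filled, and no point is filled in either large stage.

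Among CDK1, its cyclins and CKS2, 3 of 5 genes rose. Ccna2 encodes cyclin A2, which acts in S phase and at mitotic entry. Its normalized counts were 1409, 1072 and 1393 in tet-LIN28B small Pre-B libraries, against 632, 833 and 804 in control libraries. The lowest tet-LIN28B library was above the highest control library. The means were 1292 ± 190.1 in tet-LIN28B and 756 ± 109 in control mice (SD, n = 3 each), a log2 fold change of 0.77 ± 0.14 (SE, limma adjusted p = 0.00631). Ccna2 shares 863 bases with Exosc9 on the opposite strand, whose means were 1574 in tet-LIN28B and 1427 in control mice. Exosc9 had a log2 fold change of 0.14 (limma adjusted p = 0.275), and the library kit does not mark strand. Ccnb1 encodes cyclin B1, the main mitotic partner of CDK1. It had 2104, 1292 and 1601 normalized counts in tet-LIN28B libraries, against 988, 1119 and 1068 in control libraries. The groups did not overlap, and tet-LIN28B replicate 1 was farthest from the controls. The log2 fold change was 0.63 ± 0.15 (SE, limma adjusted p = 0.0226). Ccnb2 averaged 3457 ± 695 in tet-LIN28B and 2405 ± 266 in control mice (SD, n = 3 each), with a log2 fold change of 0.51 (limma adjusted p = 0.0377), a call that ended with libraries rescaled to the same total. Cks2 did not pass the test although its groups did not overlap, with a log2 fold change of 0.41 (limma adjusted p = 0.0589). Cdk1 itself had 267, 122 and 215 normalized counts in tet-LIN28B libraries, against 123, 199 and 181 in control libraries. The tet-LIN28B libraries lay on both sides of the control range, and the log2 fold change of 0.22 ± 0.29 did not pass (SE, limma adjusted p = 0.667).

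None of the 4 spindle checkpoint genes passed, and their log2 fold changes had a median of 0.10. Bub1b encodes BUBR1, part of the complex that blocks CDC20 until all chromosomes are attached. Its normalized counts were 1582, 1131 and 1188 in tet-LIN28B libraries, against 1065, 1096 and 1224 in control libraries. Only tet-LIN28B replicate 1 lay above the control range, and the log2 fold change was 0.19 ± 0.13 (SE, limma adjusted p = 0.365). The kinases Bub1 and Ttk and the checkpoint protein Mad2l1 had log2 fold changes of 0.17, -0.05 and 0.03. Of the 2 mitotic kinases outside the passenger complex, Plk1, the Polo kinase of spindle assembly and mitotic exit, had 307, 331 and 367 normalized counts in tet-LIN28B libraries, against 212, 270.3 and 228 in control libraries. Its groups did not overlap, but the log2 fold change of 0.50 ± 0.16 missed the threshold (SE, limma adjusted p = 0.0581). Aurka, the Aurora kinase of centrosomes and spindle poles, had a log2 fold change of 0.36 (limma adjusted p = 0.297).

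The chromosomal passenger complex corrects faulty attachments of chromosomes to the spindle, and 2 of its 4 genes rose. Birc5 encodes survivin, which brings the complex to centromeres. Its normalized counts were 1232, 878 and 1150.4 in tet-LIN28B libraries, against 488, 735 and 689 in control libraries. Each tet-LIN28B library was above every control library, and control replicate 1 was the lowest of all. The means were 1087 ± 185 in tet-LIN28B and 637 ± 132 in control mice (SD, n = 3 each), with a log2 fold change of 0.78 ± 0.17 (SE, limma adjusted p = 0.0152), the largest among the 44 genes in this stage. Cdca8 was higher by a log2 fold change of 0.56 ± 0.15 (SE, limma adjusted p = 0.0366). It shares 2264 bases with 9930104L06Rik on the opposite strand, which was lower in tet-LIN28B mice (log2 fold change -0.43, limma adjusted p = 0.0156), and the library kit does not mark strand. Aurkb, the kinase of the complex, had groups that did not overlap and a log2 fold change of 0.32 (limma adjusted p = 0.0729). Incenp, its scaffold, was the only gene of the complex with a negative log2 fold change, -0.25 (limma adjusted p = 0.316).

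Kinesins move chromosomes and slide spindle microtubules, and 1 of the 5 rose. Kif4 encodes the chromosome-bound kinesin KIF4, with 631, 437 and 566 normalized counts in tet-LIN28B libraries, against 311, 374 and 404 in control libraries. The groups did not overlap and the log2 fold change was 0.58 ± 0.17 (SE, limma adjusted p = 0.0435). This call ended with no filter and with libraries rescaled to the same total, and held in 1 of 6 fits with a library left out. Its overlapping neighbour on the opposite strand, Pdzd11, had a log2 fold change of 0.05 (limma adjusted p = 0.839). Kif20a, a kinesin of cytokinesis, was higher in each tet-LIN28B library than in every control library without passing the test (log2 fold change 0.34, limma adjusted p = 0.0652). Kif11, the motor that separates spindle poles, Kif23, which builds the central spindle, and Kif2c, which shortens microtubules, had log2 fold changes of 0.14, 0.38 and 0.46 and did not pass.

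Of the 8 centromere and kinetochore genes, all had a positive log2 fold change and 2 rose. Cenpe, a kinesin that carries chromosomes to the spindle equator, had 718, 706 and 1016 normalized counts in tet-LIN28B libraries, against 561, 444 and 550.4 in control libraries. The groups were apart, with tet-LIN28B replicate 3 the highest. The log2 fold change was 0.63 ± 0.16 (SE, limma adjusted p = 0.0258). Ndc80, the subunit by which the outer kinetochore holds microtubules, was higher by a log2 fold change of 0.42 ± 0.12 (SE, limma adjusted p = 0.0475). This call ended with a pseudocount of 8, no filter, libraries rescaled to the same total, TMM factors and edgeR (adjusted p = 0.0507), and held in 1 of 6 fits with a library left out. Nuf2, its partner in the same complex, had a larger log2 fold change of 0.62 but did not pass (limma adjusted p = 0.0860), and tet-LIN28B replicate 2 was at 249 normalized counts against 470.3 and 387 in the other tet-LIN28B libraries. Spc24 and Spc25, which complete the complex, had log2 fold changes of 0.19 and 0.18. Cenpa, Cenpf and Cenpk, a subunit of the inner kinetochore, had log2 fold changes of 0.24, 0.34 and 0.38 and did not pass.

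All 7 genes of spindle assembly and cytokinesis had a positive log2 fold change and 1 rose. Tpx2, which activates Aurora A and nucleates spindle microtubules, had 2014, 1370.0 and 1596 normalized counts in tet-LIN28B libraries, against 1114, 1139.6 and 1149.7 in control libraries. The control libraries lay close together and below all tet-LIN28B libraries. The log2 fold change was 0.53 ± 0.13 (SE, limma adjusted p = 0.0211). Hmmr, a spindle protein also called RHAMM, had groups that did not overlap and a log2 fold change of 0.59 (limma adjusted p = 0.0544). Nusap1, Aspm, Anln, the anillin of the cleavage furrow, and Prc1, which crosslinks the central spindle, had log2 fold changes of 0.52, 0.40, 0.30 and 0.30, and Ect2, the activator of RhoA in cytokinesis, one of 0.02. Both partners of the anaphase-promoting complex had positive log2 fold changes and neither passed. Cdc20 had 3896, 2573 and 3289 normalized counts in tet-LIN28B libraries, against 2125, 2499 and 2453 in control libraries. The lowest tet-LIN28B library was just above the highest control library, and the log2 fold change was 0.45 ± 0.13 (SE, limma adjusted p = 0.0517). Ube2c, the ubiquitin-conjugating enzyme of the complex, had a log2 fold change of 0.44 (limma adjusted p = 0.261).

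Condensin and chromosome structure had 2 of 7 genes higher and a median log2 fold change of 0.14. Mki67 encodes Ki-67, which coats mitotic chromosomes and is widely used as a marker of dividing cells. It had 1900.1, 1465 and 2030.2 normalized counts in tet-LIN28B libraries, against 1248, 1211 and 1391 in control libraries. The groups did not overlap, and the log2 fold change was 0.48 ± 0.12 (SE, limma adjusted p = 0.0287). Ncaph, the kleisin subunit of condensin I, was higher by a log2 fold change of 0.44 (limma adjusted p = 0.0326). The condensin subunits Ncapg, Ncapd2, Smc2 and Smc4 had log2 fold changes of 0.52, 0.04, 0.03 and -0.04 and did not pass. Top2a encodes topoisomerase II alpha, which untangles sister chromatids. It had 1104, 619 and 823 normalized counts in tet-LIN28B libraries, against 735, 722 and 793 in control libraries. The tet-LIN28B libraries lay on both sides of the control range, and the log2 fold change of 0.14 ± 0.18 did not pass (SE, limma adjusted p = 0.653).

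**Figure D4:**
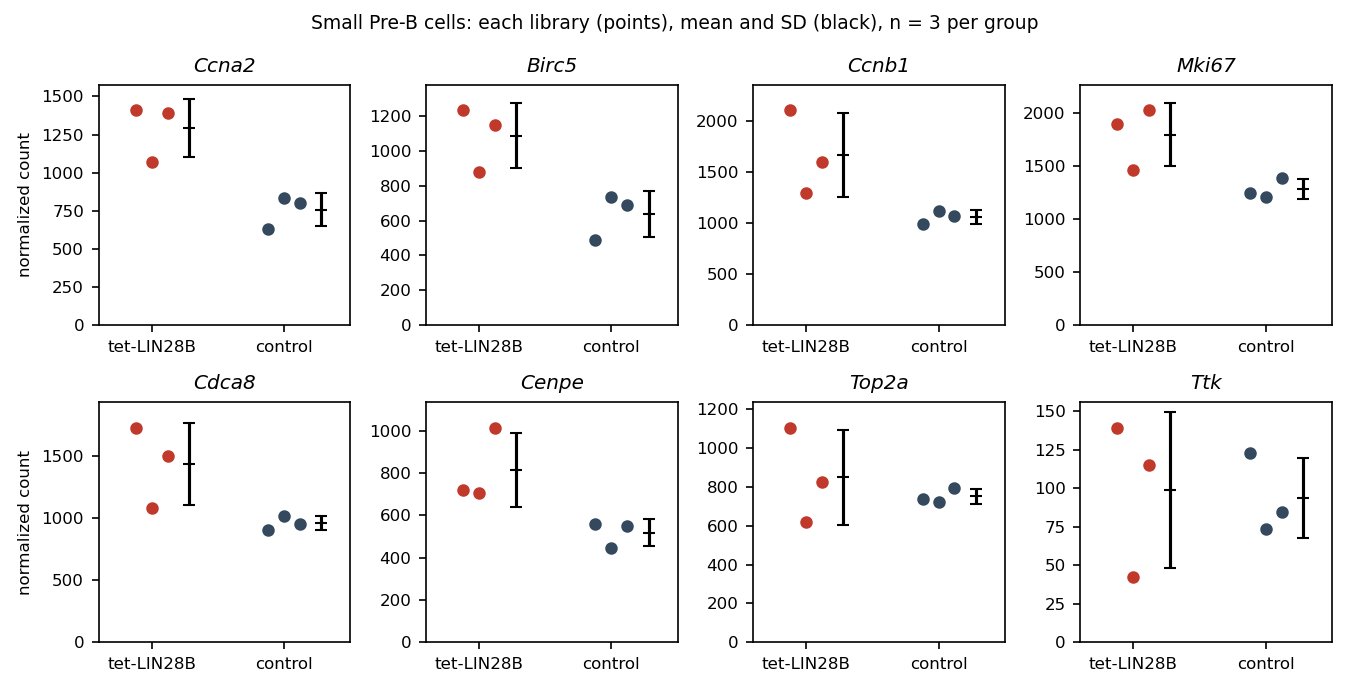
Normalized counts of selected mitosis genes in small Pre-B cells, with tet-LIN28B left of control. Points are libraries, and black marks are the mean and SD (n = 3 per group). Ccna2 averaged 1292 in tet-LIN28B and 756 in control mice with no overlap, whereas the groups of Top2a overlapped (849 in tet-LIN28B and 750.1 in control mice).

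Which of these genes passed depended on single small Pre-B libraries. In tet-LIN28B mice replicate 2 was the lowest of its group for 40 of 44 genes and replicate 1 the highest for 32, and in control mice replicate 1 was the lowest for 31. The number of higher genes among the 44 was 2, 17 and 6 without tet-LIN28B replicate 1, 2 or 3, and 1, 3 and 3 without control replicate 1, 2 or 3. Over all genes tested, 567 of 15073, 964 of 15048 and 938 of 14999 were higher without tet-LIN28B replicate 1, 2 or 3. Without control replicate 1, 2 or 3 these counts were 497 of 15028, 685 of 15025 and 644 of 15023. Ccna2 passed in all 6 of these fits with a library left out, with limma adjusted p between 0.00327 and 0.0291, and Birc5 passed in 4 (adjusted p 0.00780 to 0.0616). The other 9 genes passed in 1 or 2 of the 6. In those fits 33 to 42 of the 44 log2 fold changes were positive and none of the genes was lower. At an unadjusted limma p under 0.05, 20 of the 44 genes were past the threshold with all libraries, all of them higher. Of all 14664 genes tested, 4252 were past it in either direction. When every library was rescaled to the same total, 8 of the 44 genes were higher and 38 were positive, and over all genes 829 were higher and 1227 lower, against 1076 and 1031 with the deposited scaling.

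The summed level of the 44 genes differed by 238 RPM between tet-LIN28B and control small Pre-B cells. That was 24.0% of the control sum in small Pre-B cells and 0.929% of the control sum in large Pre-B cells. Gene by gene, the difference had a median of 0.671% of the level in control large Pre-B cells, with Incenp at the low end (-0.91%) and Cks2 at the high end (20.2%). The Pro-B markers Kit, Dntt and Flt3 summed to 4.61 to 6.18 RPM in tet-LIN28B and 2.66 to 4.28 in control small Pre-B libraries, but did not move together. Flt3 was higher in tet-LIN28B mice (limma adjusted p = 0.0346), while Dntt had a log2 fold change of 1.27 and Kit, the marker by which Pro-B cells were gated, one of -1.82, without passing (limma adjusted p = 0.0774 and 0.119). Neutrophil and monocyte markers, 12 genes, summed to 13.2 to 16.0 RPM in tet-LIN28B and 9.66 to 63.9 in control libraries, with Ly6g at 0 in all tet-LIN28B and Ltf at 0 in all control libraries. Erythroid markers, 10 genes, summed to 135 to 164 RPM in tet-LIN28B and 164 to 216 in control libraries, most of it Tfrc, which is not confined to erythroid cells. Of their 5 tested genes the globins Hbb-bs and Hba-a2 were higher in tet-LIN28B mice (log2 fold changes 1.70 and 1.36), at mean normalized counts of 41.2 and 57.9 in tet-LIN28B and 13.4 and 22.4 in control mice, and Car1 was at 0 in all control libraries. Plasma cell markers, 6 genes, summed to 1047 to 1153 RPM in tet-LIN28B and 1012 to 1099.5 in control libraries, with Mzb1 and Xbp1 higher and Sdc1, Prdm1 and Irf4 lower. T and NK cell markers summed to at most 0.47 RPM in tet-LIN28B and 1.37 RPM in control libraries. Whether other cells within the sort gate had a part in the result was not tested.

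In large Pre-B cells none of the 44 genes passed in limma, edgeR or DESeq2, and 1 had an unadjusted limma p under 0.05. Among all 14155 genes tested, 0.0424% were higher and 0.0141% lower by limma, and 930 had an unadjusted p under 0.05. No member had groups that did not overlap, whereas 3.59% of all genes had the groups apart in the higher direction and 2.87% in the lower direction. The log2 fold change was positive for 29 of 44 genes with a median of 0.11, against -0.02 over all genes, and with libraries rescaled to the same total or quantile normalized 22 and 20 were positive. Rescaling to the same total moved the median of all genes by -0.11. The median of the members lay 0.13 above that of all genes with the deposited scaling and at the same total. With quantile normalization it lay 0.0075 above.

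Ube2c, the gene with the smallest p in large Pre-B cells, had 4394, 3353, 5703 and 4552 normalized counts in tet-LIN28B libraries, against 5208, 8184 and 6819.9 in control libraries. A single tet-LIN28B library, replicate 3, reached into the control range, and the log2 fold change of -0.58 ± 0.23 did not pass (SE, limma adjusted p = 0.747). Cdk1 had 8309, 7024, 7766 and 7317 in tet-LIN28B libraries, against 10018, 9930.0 and 7541 in control libraries, with overlap at control replicate 3. Ccnb1 had 20576, 18231, 18762 and 16527 in tet-LIN28B libraries, against 25221, 18309.7 and 12017 in control libraries. The control libraries of Ccnb1 spanned all tet-LIN28B libraries. Kif11 had 16209.7, 14779, 17169 and 16985 in tet-LIN28B libraries, against 17069, 13618 and 7070.2 in control libraries. Top2a had 37123, 33710.0, 35289 and 35938 in tet-LIN28B libraries, against 36739, 30115 and 16408 in control libraries. For Kif11 and Top2a the last control library was far below every other library, and the log2 fold changes were 0.46 ± 0.27 and 0.43 ± 0.27 (SE, limma adjusted p = 0.754 and 0.757).

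The same control library was low for most other members. Aspm had 4542, 3172, 4261 and 3879 normalized counts in tet-LIN28B libraries, against 4357, 3737 and 1858 in control libraries. Bub1 had 6855, 5356, 8720.4 and 6322 in tet-LIN28B libraries, against 7526, 6638 and 4263 in control libraries. Mki67 had 26104, 24609, 22779.5 and 22719.6 in tet-LIN28B libraries, against 25794, 22979 and 14156 in control libraries. In each of these, control replicate 3 was the lowest library of the stage. Plk1 had 9673, 10085, 7553 and 8792 in tet-LIN28B libraries, against 10006, 9276 and 6495 in control libraries. Incenp had 12898, 13716, 7561 and 11323 in tet-LIN28B libraries, against 11538, 9788 and 7096 in control libraries. Spc24 had 1552, 1378, 2185 and 1763 in tet-LIN28B libraries, against 1994, 2449 and 1893 in control libraries. All of these overlapped, and the log2 fold changes of Aspm, Bub1, Mki67, Plk1, Incenp and Spc24 were 0.33, 0.17, 0.24, 0.09, 0.26 and -0.31. Control replicate 3 was the lowest of its group for 43 of the 44 genes, by a median of 0.79 on the log2 scale below the rest of the group. Its normalized counts also had the lowest total of the stage (13.6 M, with the highest at 17.5 M). By RPM its members summed to 20183, against 29641 and 26887 in control replicates 1 and 2. Without control replicate 3, 6 of the 44 log2 fold changes were positive with a median of -0.19, and without control replicate 1, 36 were positive with a median of 0.33. Neutrophil and monocyte markers summed to 7.08 to 9.77 RPM in tet-LIN28B large Pre-B libraries, and to 8.90, 427 and 75.4 in control replicates 1, 2 and 3. Across the 44 genes, the deviation of a library from the rest of its group had a correlation with log2 transcript length of -0.49 in control replicate 3 and 0.44 in control replicate 1, and of -0.29 to 0.42 in the tet-LIN28B libraries. The part of these markers and of transcript length in these values was not tested.

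In large Pro-B cells none of the 44 genes passed in limma, edgeR or DESeq2, and none had an unadjusted limma p under 0.05. By limma, 0% of the 13776 genes tested were higher and 0% lower, and 394 had an unadjusted p under 0.05. No member had groups that did not overlap, against 0.697% of all genes apart in the higher direction and 0.602% in the lower direction. The log2 fold change was positive for 19 of 44 genes with a median of -0.02, against 0.02 over all genes.

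Mki67 had 22326, 28772, 20767, 7681 and 18919 normalized counts in tet-LIN28B large Pro-B libraries, against 19827, 24564, 13807 and 6143 in control libraries. Top2a had 31205, 33761, 32868, 9421 and 28376 in tet-LIN28B libraries, against 30422, 27377, 17414 and 10443 in control libraries. For both genes replicate 4 of each genotype was the lowest of its group. Cdk1 had 7446, 7268, 6718, 10213 and 8367 in tet-LIN28B libraries, against 10182, 10009, 8681 and 7605 in control libraries. Ccnb1 had 19424, 21998, 15466, 28894 and 17504 in tet-LIN28B libraries, against 24612, 22631, 19884 and 17422 in control libraries. For Cdk1 and Ccnb1, tet-LIN28B replicate 4 was instead the highest of its group. Log2 fold changes were 0.34 ± 0.44 for Mki67, 0.33 ± 0.42 for Top2a, -0.19 ± 0.19 for Cdk1 and -0.05 ± 0.21 for Ccnb1 (SE). Across the 44 genes, the deviation of tet-LIN28B replicate 4 and of control replicate 4 from the rest of the group had correlations of -0.64 and -0.55 with log2 transcript length, and across all genes tested with a length these were -0.46 and -0.32. The other large Pro-B libraries had values of -0.38 to 0.60 across the 44 genes, with control replicate 1 at the high end. Points in these correlations share a library and are described without a test.

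Without both replicate 4 libraries, an alternative chosen after seeing the data, none of the 44 genes passed and 6 had an unadjusted limma p under 0.05. Cdk1, Ccnb2, Aurka, Cdca8, Ube2c and Cdc20 made up these 6, and all had negative log2 fold changes. The median over the 44 genes was then -0.10 with 16 positive, and edgeR likewise called 0 and had 6 under 0.05. Over all 14102 genes tested in these fits, 1002 had an unadjusted p under 0.05 by limma and 1031 by edgeR. With all libraries the limma count was 394 of 13776.

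**Figure D5:**
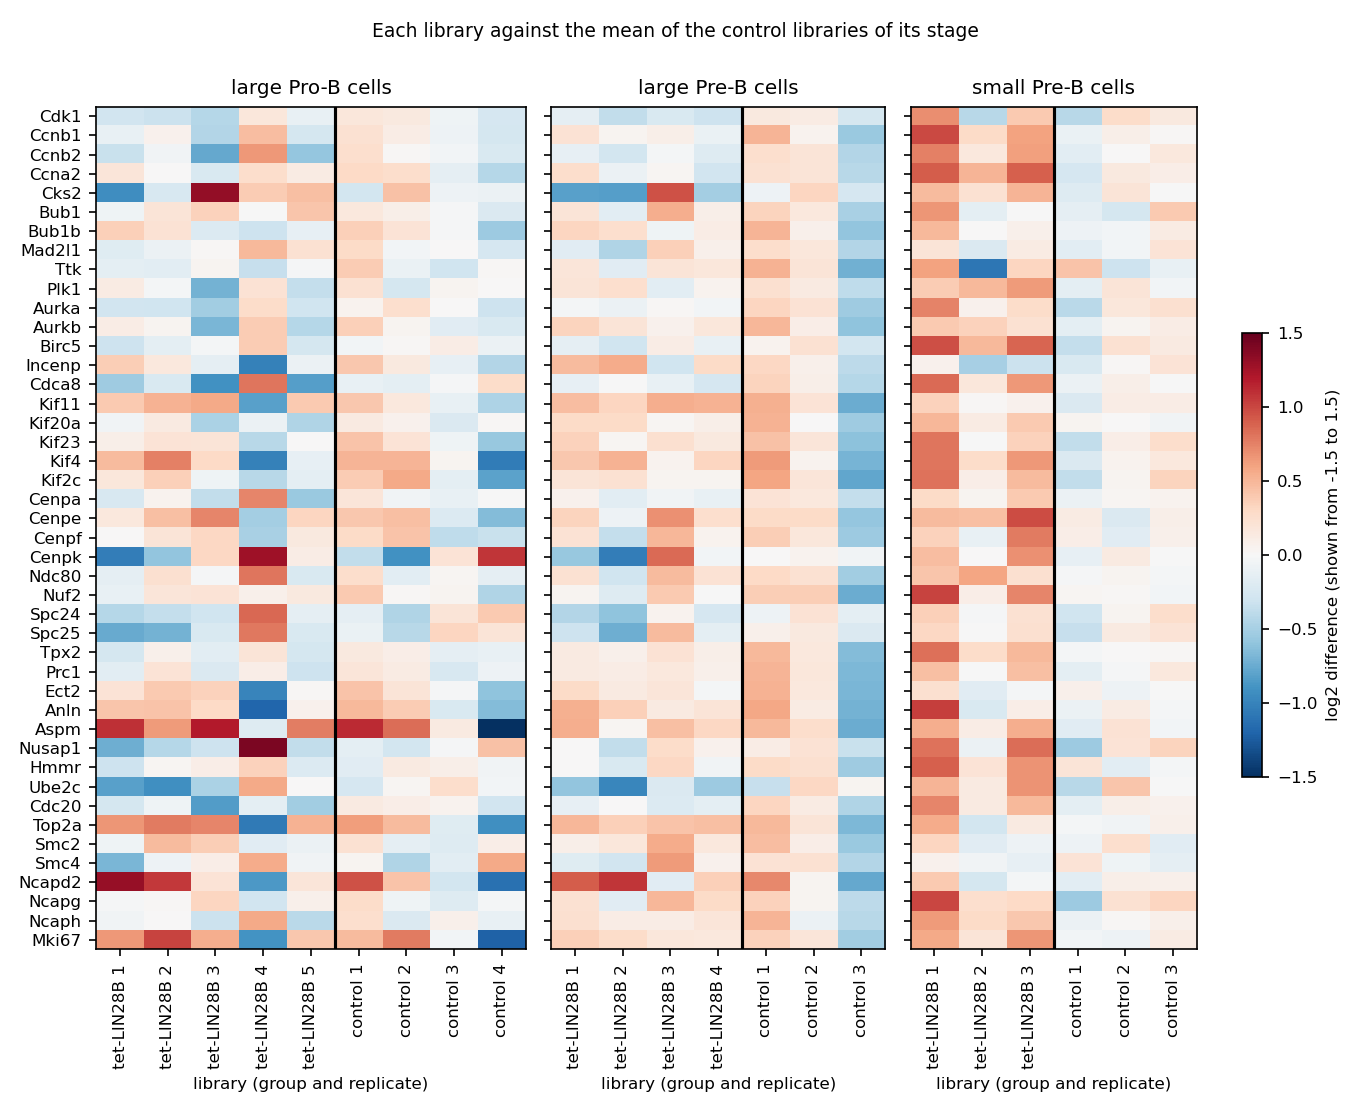
Log2 difference of each library from the mean of the control libraries of its stage, for each of the 44 mitosis genes (rows, grouped by role) and each library (columns, tet-LIN28B left of control). The column of control replicate 3 in large Pre-B cells is the lowest of its group for 43 of 44 genes, and in small Pre-B cells tet-LIN28B replicate 2 is the lowest of its group for 40.

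Whether the effect of genotype differed between stages was tested in a model of all 22 libraries with the mouse as a random block. No mouse gave both a small Pre-B and a large library, so the block links only the large stages. In contrasts with small Pre-B cells, stage and set of mice cannot be told apart. Genes with an unadjusted p under 0.05 were counted among the members alone, so such counts have no background over all genes here. For small Pre-B minus large Pre-B cells, none of the 44 genes passed, where 0.0169% of the 11830 genes tested had a positive and 0% a negative difference by limma. The difference was positive for 32 members with a median of 0.27 on the log2 scale, and 3 had an unadjusted limma p under 0.05, namely Birc5 (0.89), Ccna2 (0.75) and Ube2c (1.00). The count under 0.05 was 11 without large Pre-B control replicate 3, 7 without small Pre-B tet-LIN28B replicate 2, 5 without large Pro-B tet-LIN28B replicate 4 and 1 without small Pre-B control replicate 1, and without large Pre-B control replicate 1, 24 were positive with a median of 0.11. For small Pre-B minus large Pro-B cells none passed either, where 0.0254% of all genes had a positive and 0.00845% a negative difference. The median was 0.39 with 35 positive, and 7 had an unadjusted limma p under 0.05. They were Birc5 (0.85), Cdc20 (0.81), Ccna2 (0.70), Plk1 (0.65), Ccnb1 (0.68), Cdca8 (0.89) and Tpx2 (0.61), and the smallest adjusted p among the 44 was 0.597. Without both replicate 4 libraries of large Pro-B cells 15 members were under 0.05 and still none passed, while over all genes 14 were positive and 21 negative, against 3 and 1 with all libraries. With 1 library left out the 7 became 2 to 14. The count was 14 without large Pro-B tet-LIN28B replicate 4 or small Pre-B tet-LIN28B replicate 2, and 2 without small Pre-B tet-LIN28B replicate 3 or control replicate 1. It was 3 or 4 without large Pro-B tet-LIN28B replicate 1, 3 or 5, large Pro-B control replicate 3, small Pre-B tet-LIN28B replicate 1 or small Pre-B control replicate 3. For large Pre-B minus large Pro-B cells the median was 0.13 with 34 positive, none of the 44 had an unadjusted limma p under 0.05, and 0% of all genes passed in either direction. Without large Pre-B control replicate 3 the direction turned (median -0.12, 8 positive), and with libraries rescaled to the same total the median was 0.03 with 25 positive. The larger count of passing genes in small Pre-B cells is thus not shown to differ from that in the large stages gene by gene.

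Other genes of the division cycle were counted in the same fits. In small Pre-B cells, 7.34% of all 14664 genes tested were higher in tet-LIN28B mice and 7.03% were lower. Among 117 other mitosis genes, 4 were higher and 3 lower in tet-LIN28B small Pre-B cells, with a median log2 fold change of 0.15 and 80 positive. Cks1b, the sister subunit of CKS2, had 1782, 1303 and 1760.5 normalized counts in tet-LIN28B libraries, against 785, 1012 and 956 in control libraries (log2 fold change 0.81, limma adjusted p = 0.00499). Wapl, which releases cohesin from chromosomes, had 384, 239.6 and 328 in tet-LIN28B libraries, against 875, 651 and 573 in control libraries (log2 fold change -1.14, limma adjusted p = 0.00532). Neither gene had overlapping groups. The others were Tacc3 (0.52), Arpp19 (0.34) and Bub3 (0.29), which were higher, and Hjurp (-0.34) and Ncapd3 (-0.34), which were lower. Of 56 DNA replication genes, 3 were higher, among them Uhrf1 (0.54) and Rpa3 (0.45), and 2 lower, Pold1 (-0.33) and Orc1 (-1.09), with a median of 0.002.

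Among 26 regulators of mitotic transcription, 3 were higher and 2 lower in tet-LIN28B small Pre-B cells, with a median log2 fold change of -0.01. Over all genes tested, the shares were 7.34% higher and 7.03% lower. Foxm1, which activates many of the 44 genes, had 509.7, 486 and 503 normalized counts in tet-LIN28B libraries, against 848, 843 and 669 in control libraries. It was lower in every tet-LIN28B library, with a log2 fold change of -0.65 (limma adjusted p = 0.00749). Mybl2, the MYB protein of the same pathway, had 315, 291 and 358 in tet-LIN28B libraries, against 248, 344 and 295 in control libraries. Its groups overlapped (log2 fold change 0.13, limma adjusted p = 0.658). Myc, a growth regulator, had 315, 441 and 469 in tet-LIN28B libraries, against 37.2, 76.8 and 39.5 in control libraries. The groups were far apart, with a log2 fold change of 3.03 (limma adjusted p = 0.000231). E2f5 (0.54) and Lin37 (0.31), a subunit of MuvB, were higher, and Tfdp2 (-0.27), a partner of E2F proteins, was lower. In both large stages no gene of these 3 lists passed in limma.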

How the data were processed

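The submitters' processing notes name STAR 2.7.1, RSEM 1.28, DESeq2 and the build mm10. The deposited signal is a normalized count per gene and library, in 1 table per stage (37669 genes for large Pro-B cells, 37851 for large Pre-B cells and 26095 for small Pre-B cells). The deposited columns of base mean, fold change, its error, test statistic and p-values were not used. The library kits (SMART-Seq v4, Nextera XT) do not mark strand, so reads of overlapping genes on opposite strands cannot be told apart.

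All values (100%) were whole multiples of 1 read within 0.1 read, which gave the depths. Reads carry no molecular identifiers, so depth gives the number of reads and not of RNA molecules. Genotypes were compared within a stage by limma 3.58.1 in R 4.3.3 (trend) on log2(normalized count + 1), for genes that reached 10 in as many libraries as the smaller group has (13776, 14155 and 14664 genes in order of development), with Benjamini-Hochberg adjustment over all of them and a threshold of 0.05. This scale understates the change of low genes. Replicates are separate mice. Stage differences used 11830 genes and the mouse as a random block (correlation 0.28).

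The 44 genes and the other lists were chosen with earlier results of these data known. Values in every library are given for the members with the smallest p of each role in small and in large Pre-B cells, for up to 4 called members per stage with the largest change, for Cdk1, Ccnb1, Mki67 and Top2a, and beyond the members for Myc, Foxm1, Mybl2 and the leading called genes of the other lists. Alternatives were pseudocounts of 0.5 and 8, no filter and a filter at 50, other scalings (same total, TMM, quantile), edgeR 4.0.16 and DESeq2 1.42.0 on the recovered reads, a replicate block and each library left out. Leaving out both replicate 4 libraries of large Pro-B cells was added after seeing the data. Promoter windows and coordinates are those of RefSeq (GRCm38.p6, the build mm10). A gene that meets the rule for named genes is not reported here.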

Additional observations from a re-analysis of the deposited data

Results flagged for a closer look

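Sets of at least 4 libraries of 1 stage and genotype were examined for each gene and for the summed level of the members. Of 135 such sets, 10 held a library far from the others by Dixon's test, where chance gives about 1 in 20. The sets share libraries and are not independent. In tet-LIN28B large Pro-B cells all 7 were replicate 4, the library that also stood apart across all genes. It was the highest for Aurka (10576 normalized counts, next 7180.1), Cdca8 (25572, next 12468), Spc24 (3641, next 1829), Spc25 (4857, next 2394) and Nusap1 (26769, next 8167). It was the lowest for Kif11 (5506, next 12630.3) and Top2a (9421, next 28376). In tet-LIN28B large Pre-B cells replicate 3 was the highest for Cks2 (887, next 321) and Smc2 (8923, next 6783), and replicate 2 the lowest for Ttk (2734, next 3471). No cause was tested. None of these genes passed the test in either stage.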

How the results depend on the processing

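In small Pre-B cells the number of higher members was 11 with the deposited scaling and 8 to 13 under other pseudocounts, filters, scalings and edgeR, but 17 by DESeq2 and 1 to 17 with single libraries left out. No member was lower in any of these fits, and no call changed sign. Over all genes, single libraries left out gave 497 to 964 higher and 519 to 1016 lower. In large Pre-B cells no member passed in any fit, whereas the count of all genes higher was 6, against 12 with no filter, 0 at the same total, 2 by quantile normalization, 0 by edgeR, 61 by DESeq2 and 0 to 18 with single libraries left out. The count of genes lower was 2, against 1 at the same total, 0 by edgeR, 15 by DESeq2 and 0 to 5 with single libraries left out. In large Pro-B cells no member passed in any fit, and over all genes DESeq2 called 3 higher and 1 lower and single libraries left out gave 0 to 1 higher. The cause of these changes was not tested. No stage difference of a member passed under any alternative.

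Replicate numbers are shared between genotypes, and the deviations of libraries with the same number had correlations of -0.19 to 0.43. In large Pro-B cells, replicates 1 (0.43) and 4 (0.27) were each the best match in both directions, which held for no other pair. Whether these numbers mark a shared batch was not tested. With a replicate block, 9 members were higher in small Pre-B cells, where Kif4, Ndc80 and Ncaph were lost and Hmmr gained (851 genes higher and 907 lower in all), and in large Pre-B cells 2 genes were higher and 0 lower, none of them a member.

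Groups of 3 to 5 mice limit what could be detected, and on the log2 scale the SE of members was 0.17 to 0.56 in large Pro-B, 0.20 to 0.38 in large Pre-B and 0.092 to 0.41 in small Pre-B cells, highest for Aspm, Cks2 and Ttk in that order. A member that did not pass is not shown to be equal between genotypes. The lowest value of a member in any small Pre-B library was 42.5 normalized counts, for Ttk.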
